A study of Zea mays with 12 samples.

Results

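The protease genes of the maize seed were taken as the genes whose description or name in the deposited table contains a protease word. The words were cysteine protease or proteinase, thiol protease, cathepsin, vignain, oryzain, vacuolar-processing, legumain, aspartic protease or proteinase, aspartyl protease, carboxypeptidase, subtilisin and xylem bark cysteine. They matched 368 genes, and 28 inhibitors among these were left out, which left 340 of 55529 genes. RNA-seq was done on whole seeds of 2 genotypes with 3 libraries, stated to be biological repeats, in each of 4 groups. The *ereb92*_6h and *ereb92*_0h seeds came from *ereb92-6*, a knockout line of the transcription factor gene *ZmEREB92* made by CRISPR-Cas9 in the KN5585 background, sampled after 6 h of imbibition and at 0 h. The KN5585_6h and KN5585_0h seeds were the wild type at the same times. The mutant is represented by a single line, and each library holds embryo, endosperm and seed coat together, so that fewer cells of a type and less RNA per cell cannot be told apart. The p-values measure the spread between these libraries.

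Seed storage proteins lie in the protein bodies of the endosperm and in the vacuoles of the embryo and aleurone, and are cut to peptides and amino acids when the seed germinates. Endopeptidases open the chains: papain-like cysteine proteases, aspartic proteases and the asparagine-specific legumains act mainly in the vacuole, and many subtilisin-like proteases act in the cell wall space. Carboxypeptidases then take amino acids off the C-terminal end, and carriers in the scutellum bring peptides and amino acids into the embryo. A dry seed also stores mRNA made during seed maturation, which is present before water is taken up.

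Total counts per library ran from 12771663 to 15383586. An abundance of 3 counts, the smallest taken as seen at this depth, equalled 0.195 to 0.235 CPM (counts scaled to library size), and such limits cover counting error only. The KN5585_6h replicate 1 library stood apart, with counts on 23104 genes against 27689 to 32080 genes in the other 11 libraries. The gene whose annotated name matches *ZmEREB92*, Zm00001d000339, had 4146, 3115 and 895 counts in libraries with the *ereb92*_6h label and 126, 17 and 82 in those with the *ereb92*_0h label, against 205, 71 and 374 in KN5585_6h and 96, 25 and 27 in KN5585_0h. The paper reports that *ZmEREB92* is missing from the B73 RefGen_V4 assembly, to which the reads were aligned. That Zm00001d000339 is *ZmEREB92* therefore rests on its name alone. An edited gene can still be transcribed, so these counts do not check the genotype, and the genotypes are used as labelled. Seed markers were abundant in all libraries: the 7 oleosin genes summed to 25613 to 123544 FPKM (fragments per kilobase of gene, scaled to library size, as deposited) and globulin-1 had 1415 to 6504 FPKM. The 21 zein genes, the prolamins of the endosperm, summed to 16.3 to 928 FPKM. Of the leaf markers, 15 chlorophyll a-b binding protein genes summed to 11.3 to 34.3 FPKM, and 2 RuBisCO small subunit genes were at 0 in 11 libraries and at 0.263 FPKM in the other.

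By their descriptions, the 340 genes fell into 154 aspartic proteases, 68 serine carboxypeptidases, 52 papain-like cysteine proteases, 51 subtilisin-like proteases, 10 regulatory cysteine proteases, 4 other carboxypeptidases and 1 legumain. The class called papain-like took the genes left after the other classes. It includes 17 genes described only as cysteine proteinases superfamily protein, a wording that does not name papain. The aspartic group holds 31 genes that are there by wording: they carry a retroviral aspartyl protease domain, the protease that retrotransposons use on their own proteins, and all 31 are transcripts that the authors assembled and that are not in the reference annotation. They are described apart from the other 123 aspartic protease genes. No read was counted on 97 of the 340 genes, 243 had a count in at least 1 library, and 92 had counts in all 12 libraries. The number of protease genes with a count was 194, 182 and 180 in *ereb92*_6h and 165, 157 and 170 in *ereb92*_0h, against 109, 152 and 154 in KN5585_6h and 153, 175 and 164 in KN5585_0h. Protease genes took a narrow share of all counts, 0.386% to 0.485% in the 12 libraries.

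A small part of the gene set made up most of the protease mRNA, the 10 most abundant genes 55.3% to 80.7% of the summed protease FPKM of a library. A mean of at least 1 FPKM over the 12 libraries was reached by 101 genes, at least 10 FPKM by 29 and at least 100 FPKM by 3. These 3 were papain-like cysteine proteases, and they made up 35.1% to 62.2% of that sum. The share of the 3 was 35.1% to 43.1% in *ereb92*_6h and 45.4% to 47.2% in *ereb92*_0h, against 41.0% to 58.8% in KN5585_6h and 52.2% to 62.2% in KN5585_0h. The ranges of *ereb92*_6h and *ereb92*_0h did not overlap, and those of KN5585_6h and KN5585_0h did. Between the genotypes, the ranges of *ereb92*_0h and KN5585_0h also did not overlap, and those of *ereb92*_6h and KN5585_6h did.

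Zm00001d006364, annotated as the cysteine protease RD19D, was the most abundant. The *RD19* and *RD21* genes of Arabidopsis encode vacuolar papain-like proteases and were found by their response to drying. Zm00001d006364 had 311, 392 and 274 FPKM in *ereb92*_6h and 328, 550 and 339 FPKM in *ereb92*_0h, against 270, 512 and 873 FPKM in KN5585_6h and 1085, 633 and 545 FPKM in KN5585_0h. Both genotypes therefore held this mRNA at 0 h, and the groups overlapped in each of the 4 comparisons. Its change in the mutant was -0.33 on the log2 scale between 6 h and 0 h (SE 0.285, edgeR adjusted p = 0.612). Here and throughout, edgeR stands for its quasi-likelihood test, with Benjamini-Hochberg adjustment over all genes tested. Zm00001d026577, an RD21B gene, had 276, 335 and 327 FPKM in *ereb92*_6h and 181, 205 and 323 FPKM in *ereb92*_0h, against 199, 236 and 476 FPKM in KN5585_6h and 579, 343 and 272 FPKM in KN5585_0h. The third, Zm00001d016446 (cysteine proteinase 1), was outside the naming rule and is given because it completes the 3: its FPKM values were 114, 260 and 279 in *ereb92*_6h and 295, 388 and 270 in *ereb92*_0h, against 304, 317 and 382 in KN5585_6h and 466, 313 and 308 in KN5585_0h. In FPKM the 3 *ereb92*_6h libraries lay below all KN5585_6h libraries and overlapped with *ereb92*_0h, and KN5585_6h overlapped with KN5585_0h.

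The other classes were carried by fewer reads. The aspartic proteinase A1 genes Zm00001d009594 and Zm00001d039043, which encode vacuolar enzymes of the type known from barley grain as phytepsin, averaged 75.2 ± 5.76 and 66.6 ± 14.9 FPKM in *ereb92*_6h (SD, n = 3, here and for the other averages) and 81.3 ± 10.1 and 90.6 ± 29.4 FPKM in *ereb92*_0h. For Zm00001d039043 the log2 fold change between 6 h and 0 h was 0.63 in KN5585 and -0.46 in the mutant. The mutant change differed from that of KN5585 by -1.08 (SE 0.442, edgeR adjusted p = 0.565), and for Zm00001d009594 by 0.18 (SE 0.344, edgeR adjusted p = 0.973). The serine carboxypeptidase-like 49 gene Zm00001d020642 averaged 58.1 ± 15.0 FPKM in *ereb92*_6h and 71.6 ± 16.2 FPKM in *ereb92*_0h, against 53.0 ± 5.96 FPKM in KN5585_6h and 56.5 ± 3.06 FPKM in KN5585_0h. The prolyl carboxypeptidase-like gene Zm00001d032472 averaged 26.1 ± 8.45 FPKM in *ereb92*_6h and 29.1 ± 5.44 FPKM in *ereb92*_0h, and Zm00001d000205, a homolog of the Arabidopsis peptide-trimming carboxypeptidase SOL1, averaged 2.11 ± 0.187 FPKM in *ereb92*_6h and 1.74 ± 0.193 FPKM in *ereb92*_0h. Among the regulatory cysteine proteases, which are known for roles in regulation and not for storage protein breakdown, the OTU-like gene Zm00001d053822 averaged 29.9 ± 2.17 FPKM in *ereb92*_6h and 23.7 ± 3.77 FPKM in *ereb92*_0h. The autophagy protease gene *ATG4a* (Zm00001d001790), which trims the autophagosome protein ATG8, averaged 9.50 ± 1.58 FPKM in *ereb92*_6h and 9.85 ± 1.38 FPKM in *ereb92*_0h. None of these genes passed the test in any comparison.

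Some genes known from protein breakdown in germinating or senescing tissue were near the limit of detection. Others were not, here chosen after their values were seen. The thiol protease aleurain gene had 0.142 to 14.2 FPKM over the 12 libraries, and the cathepsin B-like gene 42.8 to 114 FPKM. The legumain, Zm00001d009759 (vacuolar-processing enzyme gamma-isozyme), had 43, 11 and 16 counts in *ereb92*_6h and 14, 2 and 7 in *ereb92*_0h, against 0, 10 and 43 in KN5585_6h and 19, 14 and 13 in KN5585_0h. Its groups overlapped at 6 h vs 0 h in both genotypes, and the mutant's log2 fold change between the times was 1.70 (SE 0.864, edgeR adjusted p = 0.365). Of 13 genes annotated as the senescence-specific protease SAG12, 3 had a count, with at most 5 counts in a library. Of 2 vignain genes, 1 had counts, at most 34 in a library. At this depth no change of the SAG12 and vignain genes could be tested, since none of them passed the filter on low counts.

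**Figure D1:**
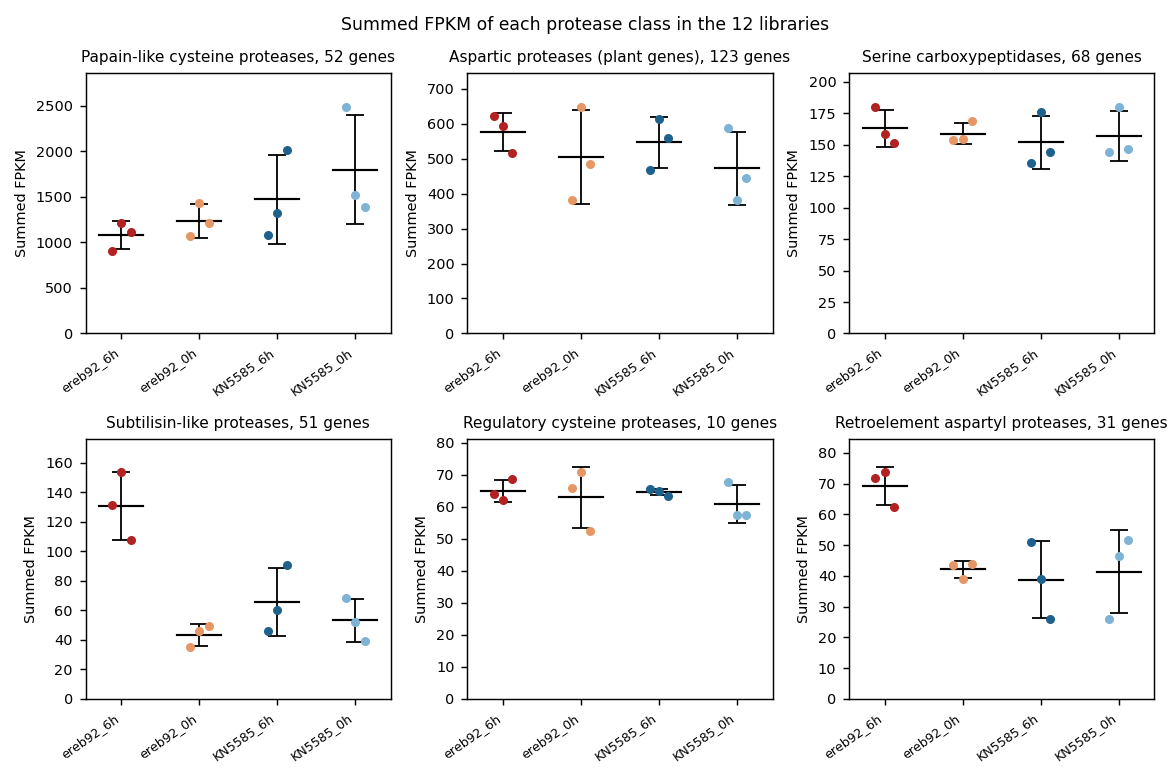
Summed FPKM of 6 protease classes (vertical axes, linear, from 0) in the 3 libraries of each group; points are libraries, the long bar is the mean and the error bar the SD. Subtilisin-like sums were 108 to 153 in *ereb92*_6h and 34.9 to 49.0 in *ereb92*_0h, while papain-like sums overlapped in each of the 4 comparisons.

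Of the class sums, those of the subtilisin-like and retroelement genes set *ereb92*_6h apart. The 51 subtilisin-like genes summed to 131, 153 and 108 FPKM in *ereb92*_6h and 34.9, 46.0 and 49.0 FPKM in *ereb92*_0h, against 45.8, 60.2 and 90.7 FPKM in KN5585_6h and 68.0, 52.0 and 39.3 FPKM in KN5585_0h. The *ereb92*_6h libraries lay above all 9 others. The retroelement genes did the same, with sums of 71.7, 73.6 and 62.2 FPKM in *ereb92*_6h and 43.5, 39.0 and 43.9 FPKM in *ereb92*_0h, against 51.1, 39.0 and 26.1 FPKM in KN5585_6h and 26.0, 46.6 and 51.5 FPKM in KN5585_0h. The sums of the papain-like genes were 909, 1216 and 1118 FPKM in *ereb92*_6h and 1068, 1433 and 1208 FPKM in *ereb92*_0h, against 1083, 1318 and 2015 FPKM in KN5585_6h and 2484, 1522 and 1389 FPKM in KN5585_0h. Serine carboxypeptidases, regulatory cysteine proteases and the 123 plant aspartic proteases overlapped between all groups. The subtilisin-like sum rests in good part on a single gene: the log2 ratio of *ereb92*_6h to *ereb92*_0h was 1.59 with Zm00001d034112 and 0.70 without it.

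The comparison of *ereb92*_6h with *ereb92*_0h asks what imbibition changed in the mutant. A gene was called, here also said to have risen or fallen, when its adjusted p was under 0.05 and its change was at least 2-fold. Of 340 protease genes, 132 had enough counts to be tested, 18 rose and 0 fell. The 18 were 13.6% of those tested, beside 5.87% of all 23575 genes tested that rose and 0.106% that fell. Before adjustment, at p under 0.05 and 2-fold, edgeR had 28 higher and 0 lower (11% and 0.878% of all genes), and with DESeq2 20 rose and 1 fell, where 8.44% of all genes rose. Protease genes had a median log2 fold change of 0.24, and all genes one of -0.02. Without overlap between the groups, 34 protease genes were higher and 7 lower (14.9% and 9.66% of all genes). A gene that passes the filter only through its 6 h libraries had to differ, so the counts among genes tested describe those genes and not all 340. Leaving out a library lowered the 18 to 6 without *ereb92*_6h replicate 1, 10 without *ereb92*_6h replicate 2, and 8, 10 and 8 without *ereb92*_0h replicates 1, 2 and 3, and left it at 20 higher and 1 lower without *ereb92*_6h replicate 3. The share of all genes that rose was 2.97% to 6.37% in these 6 fits. When single libraries were left out, 5 of the 18 genes kept their call in all 6 fits, and the other 13 lost it in 1 to 5 of the 6. The genes called in all 14 alternatives of this comparison were Zm00001d006330, Zm00001d022078, Zm00001d022600 and Zm00001d034112.

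**Figure D2:**
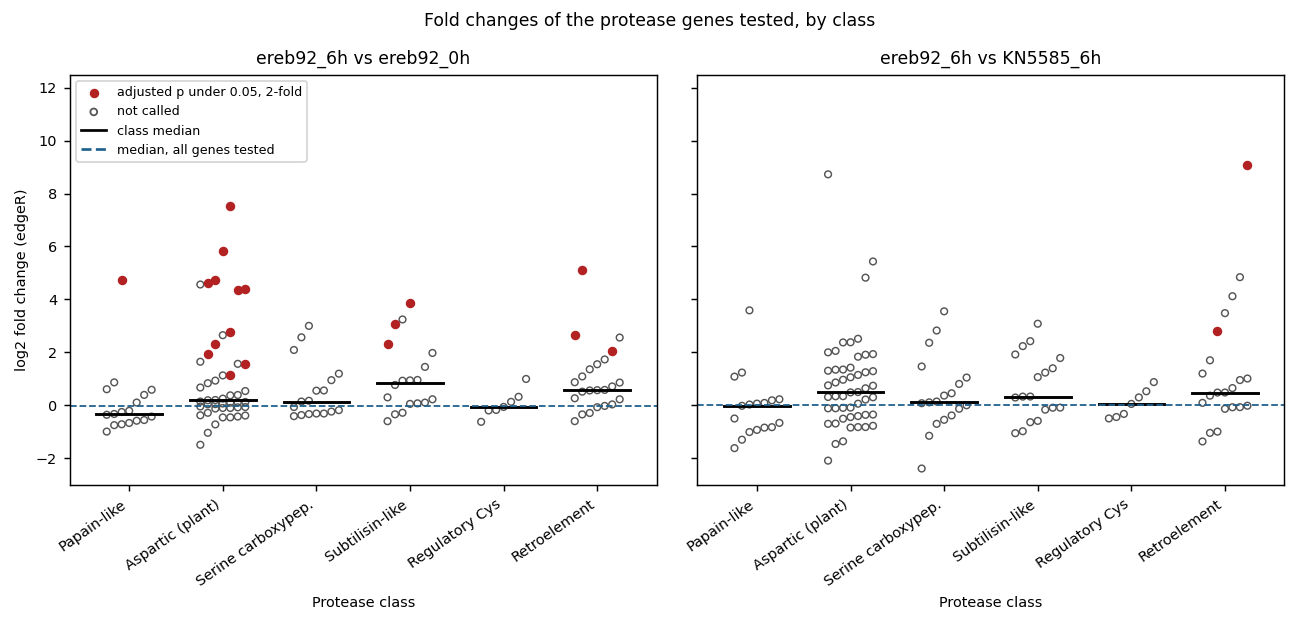
Log2 fold change (vertical axis, edgeR estimate) of each protease gene tested, by class, in *ereb92*_6h vs *ereb92*_0h (left) and *ereb92*_6h vs KN5585_6h (right); filled points were called, black bars are class medians and the dashed line is the median of all genes tested. On the left the subtilisin-like median was 0.84 and the papain-like median -0.33; on the right both called genes were retroelement genes. Points above 7 on this axis are genes with no counts in 1 of the groups, whose estimate is not a measured fold.

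Of the 18 genes that rose, 14 were aspartic proteases, retroelement genes included, as were 70 of the 132 genes tested. Of the 47 plant aspartic protease genes tested 11 rose, of 18 subtilisin-like genes 3, of 23 retroelement genes 3, of 17 papain-like genes 1, and of 17 serine carboxypeptidases, 7 regulatory cysteine proteases, 2 other carboxypeptidases and 1 legumain 0. The median log2 fold changes were 0.20, 0.84, 0.58 and -0.33 for the first 4 of these classes and 0.14 for the serine carboxypeptidases. Of the serine carboxypeptidases, 4 were higher before adjustment. Differences between the classes were not tested.

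Among the plant aspartic protease genes, 3 were called in all alternatives. Zm00001d006330, on chromosome 2 from 204891476 to 204893008 (B73 RefGen_V4, as are all positions here), had 45.3, 40.3 and 26.7 FPKM in *ereb92*_6h and 2.86, 0.726 and 0.825 FPKM in *ereb92*_0h. Its log2 fold change was 4.64 (SE 0.548, edgeR adjusted p = 0.00212), and the lowest library at 6 h was well above the highest at 0 h. In KN5585 the same gene had 2.74, 5.58 and 17.3 FPKM at 6 h and 5.76, 1.32 and 1.25 FPKM at 0 h, and those groups overlapped. Zm00001d022078, on chromosome 7 from 169614566 to 169616104, had 24.1, 30.7 and 15.4 FPKM in *ereb92*_6h and 1.77, 0.867 and 0.617 FPKM in *ereb92*_0h, a log2 fold change of 4.40 (SE 0.463, edgeR adjusted p = 0.00138). It had 1.32, 3.86 and 7.73 FPKM in KN5585_6h and 0.488, 1.53 and 0.747 FPKM in KN5585_0h. Both genes belong to the pepsin-like aspartyl protease family by description, and no substrate is given for either. Zm00001d022600, on chromosome 7 from 180836776 to 180839587, had 17.2, 18.4 and 12.3 FPKM in *ereb92*_6h and 4.81, 4.96 and 6.24 FPKM in *ereb92*_0h (log2 fold change 1.56, SE 0.250, edgeR adjusted p = 0.00856). Its KN5585_6h libraries lay between those 2 groups, at 8.22, 7.72 and 11.5 FPKM in KN5585_6h, against 10.3, 4.47 and 4.37 FPKM in KN5585_0h.

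**Figure D3:**
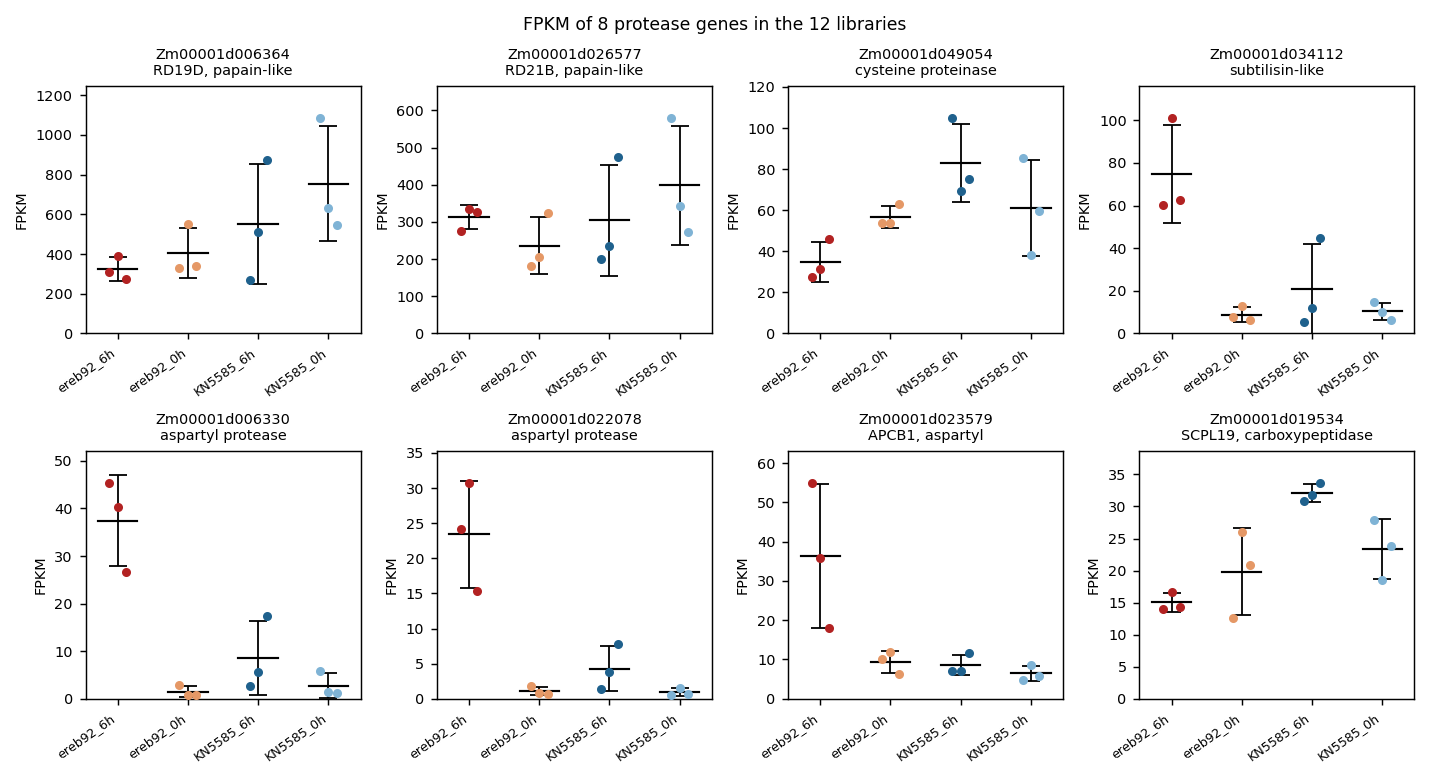
FPKM (vertical axes, linear, from 0) of 8 protease genes in the 3 libraries of each group; points are libraries, long bars means and error bars SD, cut at 0. The aspartyl protease genes Zm00001d006330 and Zm00001d022078 and the subtilisin-like Zm00001d034112 were higher in all 3 *ereb92*_6h libraries than in any other library, and the KN5585_6h libraries of these genes ranged over several-fold, with replicate 3 highest.

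Annotated homologs of proteases known from Arabidopsis immunity were among the aspartic genes that rose. APCB1 of Arabidopsis cuts a co-chaperone in the response to pathogens, and AED1 is a secreted protease of systemic immunity. Of 4 *APCB1* genes tested, 2 rose: Zm00001d023579 had 54.9, 35.9 and 18.1 FPKM in *ereb92*_6h and 10.0, 11.9 and 6.41 FPKM in *ereb92*_0h, with a log2 fold change of 1.93 (SE 0.414, edgeR adjusted p = 0.0304). The other, Zm00001d045695, had 4.74, 2.37 and 2.36 FPKM in *ereb92*_6h and 0.539, 0.276 and 0.549 FPKM in *ereb92*_0h (log2 fold change 2.77, SE 0.494, edgeR adjusted p = 0.0140). In KN5585 the first *APCB1* gene had 7.17, 6.94 and 11.7 FPKM at 6 h and 4.86, 8.64 and 5.85 FPKM at 0 h, and the second had 0.678, 0.396 and 0.651 FPKM at 6 h and 0.311, 0.0811 and 0.475 FPKM at 0 h, so that neither separated by time in the wild type. Of 6 *AED1* genes tested 2 rose, both at low counts. Zm00001d017869 had 106, 29 and 31 counts in *ereb92*_6h and 1, 3 and 4 in *ereb92*_0h (log2 fold change 4.34, SE 0.871, edgeR adjusted p = 0.0227). Zm00001d037411 had 27, 27 and 15 counts in *ereb92*_6h and 0 in each *ereb92*_0h library. That is at least 7.61-fold higher against a floor of 3 counts per library (edgeR adjusted p = 0.0181, and 0.0542 with a replicate block, which loses the call). Its KN5585 libraries, with 16, 0 and 9 counts at 6 h and 13, 0 and 7 at 0 h, showed counts at both times. Both *AED1* genes that rose passed the filter on low counts only through *ereb92*_6h, which fixed the direction of their calls.

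Further aspartic genes that rose were at or near 0 at 0 h. Zm00001d012415 had 105, 177 and 26 counts in *ereb92*_6h and 0, 0 and 5 in *ereb92*_0h (log2 fold change 5.84, SE 1.18, edgeR adjusted p = 0.0231). The nepenthesin-2 gene Zm00001d037400, named for the digestive protease of pitcher plants, had 130, 41 and 109 counts in *ereb92*_6h and 10, 1 and 0 in *ereb92*_0h (edgeR adjusted p = 0.0339). In KN5585 these 2 genes had at most 8 counts in any library. Both passed the filter on low counts only through *ereb92*_6h, which fixed the direction of their calls. Another 2 aspartic genes fell outside the naming rule and were chosen after their values were seen, to complete the calls: Zm00001d020536 had 14.8, 9.59 and 4.60 FPKM in *ereb92*_6h and 2.47, 1.36 and 1.92 FPKM in *ereb92*_0h, and Zm00001d012633 had 24.4, 12.8 and 17.6 FPKM in *ereb92*_6h and 8.74, 8.21 and 7.81 FPKM in *ereb92*_0h. The last of these had the smallest change of the 18, with a log2 fold change of 1.13 (edgeR adjusted p = 0.0458).

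The subtilisin-like gene Zm00001d034112, on chromosome 1 from 284242028 to 284244325, was the most abundant of the 18 at 6 h. It had 60.3, 101 and 62.8 FPKM in *ereb92*_6h and 7.63, 12.8 and 6.08 FPKM in *ereb92*_0h, and the log2 fold change was 3.06 (SE 0.355, edgeR adjusted p = 0.00204). In KN5585 it had 5.22, 11.9 and 44.8 FPKM at 6 h and 14.5, 10.2 and 6.40 FPKM at 0 h. A single KN5585_6h library, replicate 3, was thus above the wild-type 0 h range. The SBT5.3 gene Zm00001d020867 had 16.3, 7.74 and 5.34 FPKM in *ereb92*_6h and 1.11, 2.81 and 1.94 FPKM in *ereb92*_0h (log2 fold change 2.31, SE 0.500, edgeR adjusted p = 0.0311, and 0.0534 with a replicate block). The SBT3.9 gene Zm00001d006205, chosen after its values were seen, had 80, 41 and 11 counts in *ereb92*_6h and 2, 2 and 5 in *ereb92*_0h (edgeR adjusted p = 0.0445, and 0.0952 with a replicate block). Zm00001d006205 passed the filter on low counts only through *ereb92*_6h, which fixed the direction of its call. Not all of the class moved this way: the next most abundant member, Zm00001d007517, had 6.51, 6.26 and 7.54 FPKM in *ereb92*_6h and 7.17, 7.51 and 10.9 FPKM in *ereb92*_0h, with a log2 fold change of -0.35 (edgeR adjusted p = 0.538).

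Among the papain-like genes only Zm00001d025307 rose, with 34, 41 and 12 counts in *ereb92*_6h and 2, 0 and 1 in *ereb92*_0h. With 3 counts in all at 0 h, the ratio was 29.2, with a 95% counting interval of 9.66 to 144. Zm00001d025307 passed the filter on low counts only through *ereb92*_6h, which fixed the direction of its call. The other 16 papain-like genes tested were not called, and 11 of the 17 had a negative log2 fold change. The xylem bark cysteine peptidase 3 gene Zm00001d038650, chosen after its values were seen, was the lowest of them and had 5.67, 9.25 and 7.49 FPKM in *ereb92*_6h and 17.5, 12.6 and 14.3 FPKM in *ereb92*_0h, without overlap. Its log2 fold change of -0.998 (SE 0.258, edgeR adjusted p = 0.0644) missed both limits, and it was the 1 gene lower with DESeq2. Zm00001d049054, a papain-like gene on chromosome 4 from 14033618 to 14051717, also had no overlap, with 27.4, 31.2 and 45.8 FPKM in *ereb92*_6h and 53.8, 53.8 and 62.9 FPKM in *ereb92*_0h (log2 fold change -0.72, SE 0.237, edgeR adjusted p = 0.143). Without overlap, 4 of the 17 were lower and 2 higher, beside 9.66% and 14.9% of all genes. An uncalled gene on the higher side, chosen after its values were seen, was Zm00001d001900 (log2 fold change 0.58, SE 0.187, edgeR adjusted p = 0.135).

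Of the serine carboxypeptidases, the SCPL50 gene Zm00001d048690 had 48.4, 43.7 and 22.8 FPKM in *ereb92*_6h and 11.5, 25.8 and 21.8 FPKM in *ereb92*_0h. The groups overlapped, and its log2 fold change of 0.95 did not pass (SE 0.373, edgeR adjusted p = 0.230). In KN5585 the spread between replicates was larger than this change, with a range of 3.17 to 47.7 FPKM over its 6 libraries.

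The retroelement genes that rose were 3 assembled transcripts, named here by chromosome. The chromosome 8 gene, from 13337258 to 13341348, had 202, 586 and 104 counts in *ereb92*_6h and 5, 7 and 13 in *ereb92*_0h (log2 fold change 5.10, SE 0.719, edgeR adjusted p = 0.00468). That gene passed the filter on low counts only through *ereb92*_6h, which fixed the direction of its call. The chromosome 5 gene, from 57468710 to 57471232, had 67, 140 and 98 counts in *ereb92*_6h and 25, 13 and 11 in *ereb92*_0h (log2 fold change 2.64, SE 0.475, edgeR adjusted p = 0.0143). The chromosome 1 gene, from 205137927 to 205143984, had 597, 1055 and 472 counts in *ereb92*_6h and 212, 68 and 241 in *ereb92*_0h (log2 fold change 2.06, SE 0.430, edgeR adjusted p = 0.0265). Retroelements have many near-identical copies, and reads shared between copies make the counts of a single copy uncertain. Without the 31 retroelement genes, 15 of 109 protease genes tested rose.

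**Figure D4:**
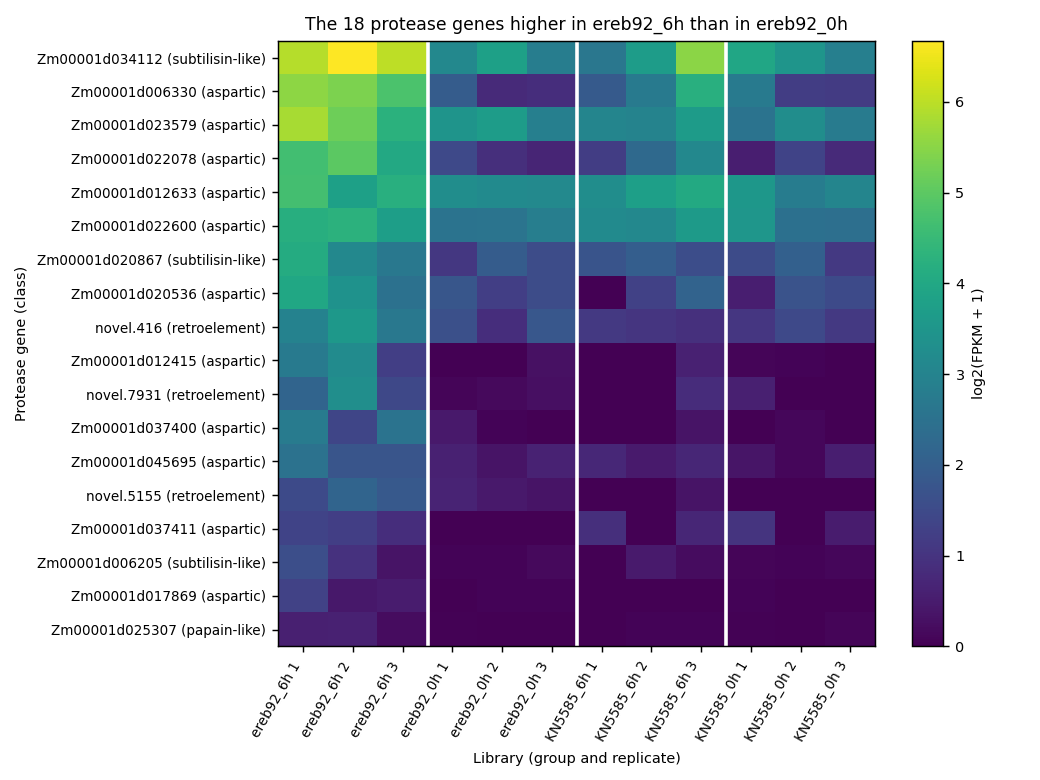
FPKM, as log2(FPKM + 1), of the 18 protease genes that rose in *ereb92*_6h vs *ereb92*_0h (rows, ordered by their mean in *ereb92*_6h) in each of the 12 libraries (columns, by group). Row labels are the IDs of the deposited table, where assembled transcripts carry the authors' own IDs. Values were highest in the *ereb92*_6h columns, with KN5585 libraries reaching into their range for Zm00001d037411, Zm00001d012633 and Zm00001d006205, and KN5585_6h replicate 3 was the highest wild-type library for Zm00001d034112, Zm00001d006330 and Zm00001d022078.

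Genes that rose were found at low, middle and high levels, but not among the most abundant mRNAs. By the mean over all 12 libraries, 5 of 32 genes tested under 1 FPKM rose, 9 of 71 between 1 and 10 FPKM, and 4 of 29 at 10 FPKM or more. The median log2 fold changes in these classes were 1.16, 0.22 and -0.13. The 4 genes of the upper class were Zm00001d034112, Zm00001d023579, Zm00001d006330 and Zm00001d012633, and none of the 13 genes with a higher mean than Zm00001d034112, at 28.6 FPKM, was called. The lowest class holds genes that could pass the filter only where they were high.

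**Figure D5:**
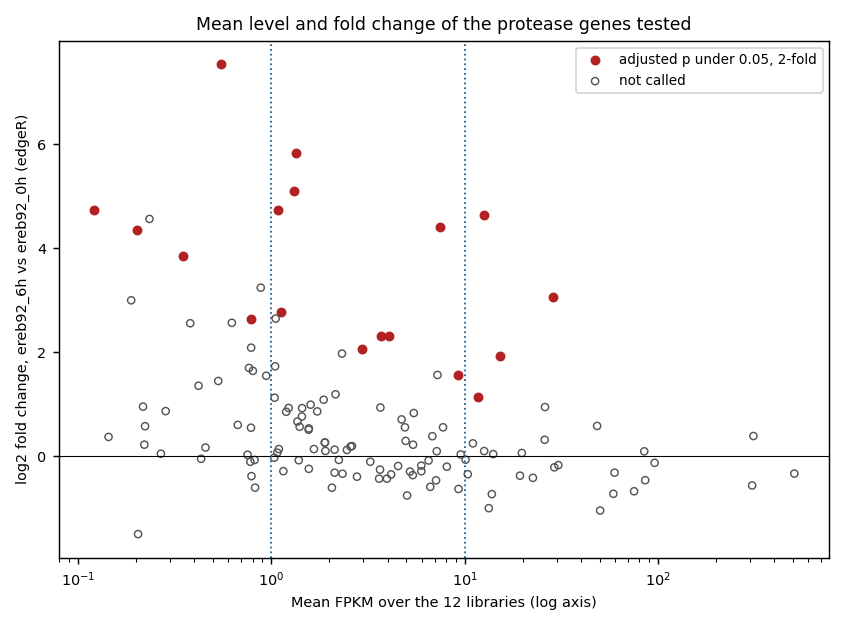
Mean FPKM over the 12 libraries (horizontal axis, log scale; dotted lines at 1 and 10 FPKM) and log2 fold change in *ereb92*_6h vs *ereb92*_0h (vertical axis, edgeR estimate) of the 132 protease genes tested; filled points were called. All 18 called genes lie at or below 28.6 FPKM, and the most abundant protease genes lie near or below 0.

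Other genes of protein breakdown are given for comparison. Between 6 h and 0 h in the mutant, 1 of 28 protease inhibitor genes tested rose and 0 fell, of 25 aminopeptidases and other peptidases 0 and 0, and of 29 storage protein genes 1 and 0. For the peptidases, edgeR had 1 gene higher and 1 lower before adjustment. Of 45 peptide and amino acid carrier genes tested 11 rose and 0 fell, 24.4%. The median log2 fold changes were -0.14, -0.20, -0.31 and 0.32 for inhibitors, peptidases, storage proteins and carriers. None of 4 alpha-amylase genes tested was called by edgeR (1 higher before adjustment). Seed markers were mixed in the same libraries. All 7 oleosin genes and all 9 zein genes tested had negative log2 fold changes, with medians of -0.63 and -0.79 and none called. Globulin-1 was also negative, at -0.46. Of 34 late embryogenesis abundant genes tested, 23 were negative and 11 positive, with a median of -0.30, and 2 rose. Of the 4 alpha-amylase genes, 3 were positive and 1 negative, with a median of 0.40. The part of these marker levels in the protease results was not tested.

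The comparison of *ereb92*_6h with KN5585_6h asks what the mutation changed in imbibed seeds. It shares the *ereb92*_6h libraries with the comparison above. Of 134 protease genes tested 2 rose and 0 fell, 1.49%, beside 0.815% of all 23066 genes tested that rose and 0.143% that fell. Both were retroelement genes. The chromosome 1 gene named above had 6.84, 10.7 and 5.35 FPKM in *ereb92*_6h, against 1.14, 1.05 and 0.909 FPKM in KN5585_6h (log2 fold change 2.82, SE 0.339, edgeR adjusted p = 0.0242). A gene on chromosome 10, from 87319260 to 87322932, had 92, 71 and 52 counts in *ereb92*_6h, against 0 in each KN5585_6h library, at least 22.1-fold higher against 3 counts per library (edgeR adjusted p = 0.0401). This gene passed the filter on low counts only through *ereb92*_6h, which fixed the direction of its call. It had 0, 33 and 0 counts in *ereb92*_0h and 0 in KN5585_0h. Both calls were lost without *ereb92*_6h replicate 1, without *ereb92*_6h replicate 2 or without KN5585_6h replicate 2, where 0 protease genes were called. At most 0.0207% of all genes were called higher in these 3 fits. Without *ereb92*_6h replicate 3 only the chromosome 1 gene was called.

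Outside the retroelement genes, 0 of 113 protease genes were called by edgeR in *ereb92*_6h vs KN5585_6h. Before adjustment, at p under 0.05 and 2-fold, 18 protease genes were higher and 5 lower (8.32% and 2.99% of all genes), 13 and 5 of them outside the retroelement genes. With DESeq2 13 rose and 2 fell, where it called 5.48% of all genes higher and 265 of 23066 lower. Without overlap, 26 were higher and 13 lower, beside 15.7% and 8.77% of all genes. Over protease genes the median log2 fold change was 0.29, against 0.00 over all genes. Leaving out KN5585_6h replicate 3 raised the edgeR count to 11, all higher, while the share of all genes called higher rose to 2.04%, and leaving out KN5585_6h replicate 1, the library with few genes, kept it at 2.

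Several genes that rose in the mutant with imbibition had no overlap with KN5585_6h and did not pass the adjusted threshold. Zm00001d006330 had a log2 fold change of 2.05 (SE 0.629, edgeR adjusted p = 0.186), Zm00001d022078 2.37 (SE 0.610, edgeR adjusted p = 0.124) and the subtilisin-like Zm00001d034112 1.78 (SE 0.718, edgeR adjusted p = 0.303). Of the higher genes, the nearest to the threshold were the *AED1* gene Zm00001d017869, with 106, 29 and 31 counts in *ereb92*_6h against 0 in each KN5585_6h library (at least 17.4-fold higher, edgeR adjusted p = 0.0743), and the *APCB1* genes Zm00001d023579 and Zm00001d045695, with log2 fold changes of 1.998 and 2.38 (edgeR adjusted p = 0.0804 and 0.0973). The SBT5.3 gene Zm00001d020867 had a log2 fold change of 1.92 (edgeR adjusted p = 0.0990). Zm00001d017869 passed the filter on low counts only through *ereb92*_6h, which fixed its direction.

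A smaller set lay lower in the mutant at 6 h, none past the adjusted threshold. Zm00001d019534, annotated as SCPL19, had 14.02, 16.7 and 14.4 FPKM in *ereb92*_6h, against 30.9, 31.8 and 33.6 FPKM in KN5585_6h. The groups were far apart relative to their spread, with a log2 fold change of -1.16 (SE 0.228, edgeR adjusted p = 0.0682). In Arabidopsis SCPL19 is an acyltransferase of sinapate ester synthesis and not a peptidase, so this gene is in the set by family. Zm00001d049054, papain-like, had 27.4, 31.2 and 45.8 FPKM in *ereb92*_6h, against 105, 69.1 and 75.3 FPKM in KN5585_6h (log2 fold change -1.30, SE 0.313, edgeR adjusted p = 0.106). Both genes were called lower with DESeq2. The other SCPL19 gene, Zm00001d005627, had 5, 7 and 13 counts in *ereb92*_6h, against 83, 31 and 14 in KN5585_6h. The aspartyl protease gene Zm00001d052720 had 4, 9 and 7 counts in *ereb92*_6h, against 28, 30 and 20 in KN5585_6h, with a log2 fold change of -2.10 (edgeR adjusted p = 0.297). The remaining gene of the 5, Zm00001d038045 (log2 fold change -1.47, edgeR adjusted p = 0.186), is described with the wild type.

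For *ereb92*_6h vs KN5585_6h, the lists of related genes gave few calls. Carriers had 2 higher and 0 lower of 45 tested, and protease inhibitors, storage proteins, other peptidases and alpha-amylases had 0 of 27, 28, 24 and 4 by edgeR. Before adjustment these 4 lists had 2, 2, 2 and 0 genes higher and 1, 1, 4 and 0 lower. The oleosin and zein medians were -0.71 and -0.92 on the log2 scale. Of 36 late embryogenesis abundant genes tested, 16 were positive and 20 negative, with a median of -0.21. The part of these markers in the protease values was not tested.

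The comparison of KN5585_6h with KN5585_0h asks what imbibition changed in the wild type. Of 114 protease genes tested 0 rose and 0 fell, as did all but 1 of 22282 genes tested (0.00449% rose, 0% fell) by edgeR. Before adjustment 2 protease genes were higher and 0 lower (1.03% and 1.23% of all genes), and DESeq2 called 1 higher (0.206% of all genes). The edgeR count was also 0 without KN5585_6h replicate 1. Groups without overlap were found for 5 higher and 4 lower protease genes, beside 4.54% and 5.85% of all genes. The protease median of log2 fold changes was 0.04, and that of all genes -0.02. The 2 genes were Zm00001d022078 (log2 fold change 2.20, SE 0.779, edgeR adjusted p = 0.999) and Zm00001d038045, an aspartic proteinase A1 gene on chromosome 6 from 145988535 to 145990885. Zm00001d038045 had 31.7, 21.2 and 18.05 FPKM in KN5585_6h, against 7.05, 9.88 and 7.66 FPKM in KN5585_0h, without overlap (log2 fold change 1.53, SE 0.316, edgeR adjusted p = 0.820, the gene called with DESeq2). In the mutant the same gene had 8.14, 14.1 and 4.48 FPKM in *ereb92*_6h, against 11.4, 15.7 and 16.7 FPKM in *ereb92*_0h. The highest level of Zm00001d038045 was thus in imbibed wild-type seeds. The papain-like genes had a negative log2 fold change in 13 of 17 cases in KN5585, with a median of -0.31 and none called.

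The comparison of *ereb92*_0h with KN5585_0h asks whether dry mutant seeds already differed. Of 118 protease genes tested 0 rose and 0 fell by edgeR (0.168% and 0.0973% of all 22610 genes tested). Before adjustment 3 were higher and 3 lower (2.68% and 3.26% of all genes), and 9 and 7 did not overlap (8.71% and 7.94% of all genes). DESeq2 called 1 higher (1.19% of all genes), the retroelement gene on chromosome 5, with 25, 13 and 11 counts in *ereb92*_0h, against 0 in each KN5585_0h library, at least 4.49-fold higher against 3 counts per library (edgeR adjusted p = 0.157). That gene passed the filter on low counts only through *ereb92*_0h, which fixed its direction. The protease median was -0.09 on the log2 scale, against -0.01 for all genes, and it turned to 0.05 under scaling by library size alone, which moved that of all genes to 0.13. Among stored mRNAs Zm00001d006364 (RD19D) had a log2 fold change of -0.88 (SE 0.334, edgeR adjusted p = 0.435) and Zm00001d026577 (RD21B) one of -0.74 (SE 0.339, edgeR adjusted p = 0.531). Before adjustment 9 of 16 zein genes tested were lower in *ereb92*_0h, with a median of -1.95, and their part in these values was not tested.

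Whether imbibition acted differently in the 2 genotypes was tested as an interaction over all 12 libraries. Of 145 protease genes tested 0 were called by edgeR in either direction (0.0313% higher and 0% lower of all 25567 genes tested). Before adjustment 12 were higher and 4 lower, beside 5.86% and 0.860% of all genes, and DESeq2 called 1 higher and 1 lower, with 1.38% of all genes higher. The median was 0.49 over protease genes and 0.08 over all genes. For Zm00001d006330 the change at 6 h was larger in the mutant by 3.01 on the log2 scale (SE 1.07, edgeR adjusted p = 0.464), for Zm00001d022078 by 2.22 (SE 0.882, edgeR adjusted p = 0.550) and for Zm00001d034112 by 2.07 (SE 0.873, edgeR adjusted p = 0.588). Without KN5585_6h replicate 3, in which these 3 genes were highest among wild-type libraries, Zm00001d034112 was called. It was the only protease gene called in that fit, where 1.03% of all genes were called higher. The genes that DESeq2 called were the retroelement gene on chromosome 1, higher by 2.44, and Zm00001d038045, with an interaction of -2.24 (SE 0.545, edgeR adjusted p = 0.202). With all 12 libraries, edgeR thus called no protease gene for a different change in the mutant and the wild type. This does not show that the changes were equal.

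On the chromosomes, 72 of the 309 protease genes outside the retroelement set lay within 200000 bases of another gene of their class, in 31 clusters of at least 2 genes. Of the 15 genes outside the retroelement set that rose in *ereb92*_6h vs *ereb92*_0h, 2 lay in a cluster. The first was Zm00001d017869, in a group of 4 *AED1* genes on chromosome 5 from 209118987 to 209161914, all with counts and all tested. Its neighbor Zm00001d017866, chosen after its values were seen, had 40, 16 and 19 counts in *ereb92*_6h and 3, 0 and 0 in *ereb92*_0h, and the ratio was 25.1 with a 95% counting interval of 8.28 to 125 (edgeR adjusted p = 0.0598, and 0.0473 with a replicate block, where it was called). This neighbor passed the filter on low counts only through *ereb92*_6h, which fixed its direction. The second was Zm00001d037411 on chromosome 6, whose only neighbor had no counts in any library. Genes of such clusters can share reads, and how the authors counted reads that map to several places is not given in the sources used here. The other 13 had no gene of their class within that distance.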

How the data were processed

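RNA-seq reads of 12 libraries had been aligned by the authors to the B73 reference genome with Hisat2 and counted with featureCounts. The deposited counts are raw whole numbers per gene. The FPKM values were computed by the authors from the counts and gene lengths, and serve here only to show levels. Columns with the authors' group means, log2 fold changes and p-values were not used. Of the per-sample columns, 0 were unused. Strand setting and treatment of multi-mapped reads are not given in the sources used here.

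Analysis used R 4.3.3, edgeR 4.0.16, limma 3.58.1 and DESeq2 1.42.0. Each comparison of 3 against 3 libraries was fitted on its own 6 libraries with TMM factors, filterByExpr, glmQLFit and glmQLFTest, and p-values were adjusted by Benjamini-Hochberg over all genes tested. The interaction was fitted on all 12 libraries. Calls needed an adjusted p under 0.05 and a 2-fold change. Counts of genes without overlap between groups compared CPM scaled with TMM factors over all 12 libraries, not FPKM. The scripts were tested on simulated data.

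Total counts were 12771663 to 15383586. The genes named are, by a rule, the 2 with the highest mean FPKM per class, up to 10 higher and 5 lower called genes per comparison at 6 h (at an unadjusted p under 0.05 where fewer than 3 were called), all called elsewhere, and the legumain. Others are marked as chosen after their values were seen. The gene set, classes and lists were chosen with earlier results of these data known. In *ereb92*_6h vs *ereb92*_0h the deviations of same-numbered libraries correlated by 0.392, 0.271 and 0.195 over genes. The sample titles give replicate numbers but do not say that these pair the samples. Libraries with different numbers were not correlated for reference, so pairing is not settled. The main fits leave replicate numbers out. A replicate block was fitted as an alternative. Other alternatives were 3 scalings, 2 filters on low counts, DESeq2, 1 fit on all libraries, leaving out each library, and, chosen after seeing the data, leaving out retroelement genes.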

Additional observations from a re-analysis of the deposited data

How the results depend on the processing

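In *ereb92*_6h vs *ereb92*_0h the 18 protease genes called became 10 with at least 10 counts required in every library and 8 in 1 fit on all 12 libraries, all higher. The shares of all genes called higher in these 2 fits were 5.83% and 3.11%. The protease calls numbered 6 to 21 when each library was left out. RLE and upper-quartile scaling, library size alone and the filter of 1 count gave 16 to 24, and the replicate block gave 16, of which 15 were shared with the 18. All genes called higher were 4.67% to 6.33% in the first 4 of these and 6.46% with the block. In *ereb92*_6h vs KN5585_6h the 2 calls became 4 with library size alone, 12 with the filter of 1 count, 4 with the filter of 10 counts, 15 with DESeq2, 6 in 1 fit on all libraries and 0 without the retroelement genes. The shares of all genes called higher in the first 5 of these were 1.98%, 2.12%, 1.9%, 5.48% and 2.94%, against 0.815% in the main fit. Protease calls were 0 to 11 when each library was left out, where 0% to 2.04% of all genes were called higher. The replicate block gave 0 there. Correlations of same-numbered libraries were -0.107, -0.0761 and -0.0463 in that comparison. They were mixed in KN5585_6h vs KN5585_0h, at -0.0172, 0.204 and -0.249. In *ereb92*_0h vs KN5585_0h they were -0.159, -0.107 and -0.101. The block also gave 0 in KN5585_6h vs KN5585_0h, in *ereb92*_0h vs KN5585_0h and for the interaction. DESeq2 called 1, 1 and 2 genes in these 3 comparisons, where edgeR called 0. Leaving out each library gave 0, 0 to 2 and 0 to 1 there, where at most 0.00419%, 0.439% and 1.03% of all genes were called higher. The causes of these differences were not tested. In *ereb92*_6h vs *ereb92*_0h the block changed the calls of Zm00001d037411, Zm00001d020867, Zm00001d006205 and Zm00001d017866, and no other call. Scaling by library size alone moved the median log2 fold change of all genes to 0.13 in *ereb92*_6h vs KN5585_6h, 0.12 in KN5585_6h vs KN5585_0h and 0.13 in *ereb92*_0h vs KN5585_0h, and upper-quartile scaling moved it to -0.13 in *ereb92*_6h vs *ereb92*_0h and -0.03 for the interaction. Of the fold changes of named genes that were recomputed, those of the 2 comparisons with *ereb92*_6h, 0 reversed. Genes with few counts, among them the SAG12 and vignain genes, could not be judged at this depth.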

Other observations

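The genes annotated as protease inhibitors had a higher summed level than the protease genes. Which of the proteases described here they act on is not given. Their 62 genes, of which 47 had counts, summed to 3306, 4380 and 3438 FPKM in *ereb92*_6h and 4172, 6783 and 4758 FPKM in *ereb92*_0h, against 5356, 4490 and 6793 FPKM in KN5585_6h and 12085, 5892 and 5912 FPKM in KN5585_0h. The 340 protease genes summed to 1998, 2291 and 2057 FPKM in *ereb92*_6h and 1772, 2422 and 2043 FPKM in *ereb92*_0h, against 1886, 2305 and 2941 FPKM in KN5585_6h and 3423, 2271 and 2158 FPKM in KN5585_0h. The inhibitor sum was above the protease sum in every library.

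The 86 peptide and amino acid carrier genes summed to 1072, 924 and 905 FPKM in *ereb92*_6h and 529, 688 and 592 FPKM in *ereb92*_0h, without overlap, against 448, 579 and 762 FPKM in KN5585_6h and 631, 541 and 456 FPKM in KN5585_0h, which overlapped. The 46 aminopeptidases and other peptidases summed to 328 to 352 FPKM in *ereb92*_6h and 358 to 367 FPKM in *ereb92*_0h. Their sums were 297 to 398 FPKM in KN5585_6h and 303 to 350 FPKM in KN5585_0h, a wider spread that overlapped between the times.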
